A study of Rattus norvegicus with 6 samples.

Results

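The transporters and pumps that move inorganic ions, bicarbonate and metals were examined in ShSuz12 and control IEC-6 cells. Members were all probe sets annotated to exactly 1 gene of the solute carrier families Slc4, Slc8, Slc9, Slc11, Slc12, Slc13, Slc20, Slc24, Slc26, Slc30, Slc31, Slc34, Slc39, Slc40 and Slc41, or to a gene whose symbol begins with Atp1a, Atp1b, Atp2a, Atp2b or Atp7. This gave 133 probe sets of 88 genes, out of 31042 probe sets tested and 14217 genes with a probe set of their own. For 33 of the 88 genes there were at least 2 probe sets, and the one with the highest mean over all arrays then stood for the gene. IEC-6 is an undifferentiated, non-tumorigenic line from the crypts of rat small intestine. The ShSuz12 cells were infected with a lentivirus carrying a short hairpin RNA against Suz12, a subunit of the Polycomb repressive complex PRC2, and the control cells with a virus carrying a scrambled hairpin. Puromycin selected a population of infected cells in each case, so each group is 1 cell population carrying 1 hairpin, and all cells were grown in DMEM with fetal bovine serum. RNA from 3 independent experiments per group was hybridized to 6 Affymetrix arrays, and the adjusted p-values below, from limma over all 31042 probe sets, measure the spread between those experiments.

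Epithelia move ions in a fixed order. The sodium pump, an alpha and a beta subunit, expels sodium across the basolateral membrane, and exchangers and cotransporters of the Slc4, Slc9, Slc12 and Slc26 families use the sodium gradient, directly or through other ions, to carry protons, bicarbonate and chloride. Trace metals are handled by importers, exporters and intracellular carriers, among them Slc11a2 and Slc40a1, the entry and exit routes for iron in the enterocyte. PRC2 methylates lysine 27 of histone H3, and in mammalian cells it is found mainly at promoters rich in the dinucleotide CG.

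Suz12 itself lay at log2 values of 5.82, 5.77 and 5.91 on the ShSuz12 arrays and at 8.45, 8.55 and 8.77 on the control arrays. The log2 difference, ShSuz12 minus control, was -2.76 (SE 0.09, adjusted p = 2.78e-07). Over all probe sets the arrays correlated at 0.997 to 0.998 within a group and at 0.979 to 0.980 between groups. The median log2 value of an array was 6.26 to 6.27 in ShSuz12 cells and 6.15 to 6.17 in control cells. Subtracting it lowered every log2 difference by 0.10, and the counts below are given on that scale too where they differ. The values are of bulk RNA, in which fewer cells of a type and less RNA per cell cannot be told apart. Of 13 epithelial marker genes, 3 were higher in ShSuz12 cells (Lgr5, Cdx2 and Krt19) and 2 were lower (Cdh1 and Krt8), or 3 and 3 after that subtraction, while Epcam, Fabp2 and Krt18 lay at or below the 8.15 percentile of the control arrays. The log2 values of these markers summed to 78.5 to 80.1 on the ShSuz12 arrays and to 73.6 to 74.5 on the control arrays. Of 11 fibroblast and smooth muscle markers, 5 were higher (Col1a2, Col3a1, Dcn, Lum and Pdgfrb) and 2 lower (Acta2 and Tagln), or 5 and 3 after it, with sums of 103.8 to 104.1 in ShSuz12 cells and 94.3 to 94.9 in control cells. Of 6 leukocyte markers 0 rose and 3 fell, or 5 after it, with sums of 33.4 to 33.6 in ShSuz12 cells and 34.3 to 34.6 in control cells. Of 4 endothelial markers 1 rose and 0 fell, or 1 and 1 after it, with sums of 18.2 to 18.6 in ShSuz12 cells and 17.2 to 17.8 in control cells. Over all genes 17.1% rose and 23.3% fell, or 13.6% and 41.7% after the subtraction. The part of these marker shifts in the results below was not tested.

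Changes of 2-fold or more were few among the transporters. With the adjusted p below 0.05 and a change of 2-fold or more, 2 member probe sets were higher in ShSuz12 cells, both of Atp1b1, and 2 were lower, both of Slc4a4. Over all probe sets 3.1% were higher and 0.396% lower by this rule. Counted as genes, 1 of 88 was higher and 1 lower, beside 3.82% higher and 0.422% lower of all genes. Without the limit on fold, 22 of the 88 genes rose (25.0%, beside 17.1% of all genes), 8 fell (9.09%, beside 23.3%) and 58 did not pass. After subtraction of the array medians 19 rose (21.6%, beside 13.6% of all genes) and 24 fell (27.3%, beside 41.7%), so the surplus of rises among the genes that passed, 73.3% of them, turned to 44.2% on that scale. Over all genes the same change of scale moved the share of rises among those that passed from 42.3% to 24.5%. A second quantile normalization gave 23 rises and 10 falls. No member gene that passed changed sign after the second quantile normalization. Median subtraction could not turn a sign among them, since it lowered every difference by 0.10 and each rise that passed was at least 0.21.

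By probe set, 29 of 133 were higher and 16 lower at an adjusted p under 0.05, beside 14.8% and 19.5% of all probe sets. In 61 of the 133 the ShSuz12 and control values did not overlap (45.9%), where the share over all probe sets was 47.5%. The median log2 difference of the 88 genes was 0.01, beside -0.05 for all genes. The typical member was also measured as tightly as other genes, with a median SD of 0.06 in ShSuz12 cells and 0.07 in control cells. In both groups 19 of the 88 genes lay below the 25th percentile of the array, and 1 of these, Slc26a2, passed the test (5.26%). Of all genes so placed, 2228 in number, 8.44% passed.

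**Figure D1:**
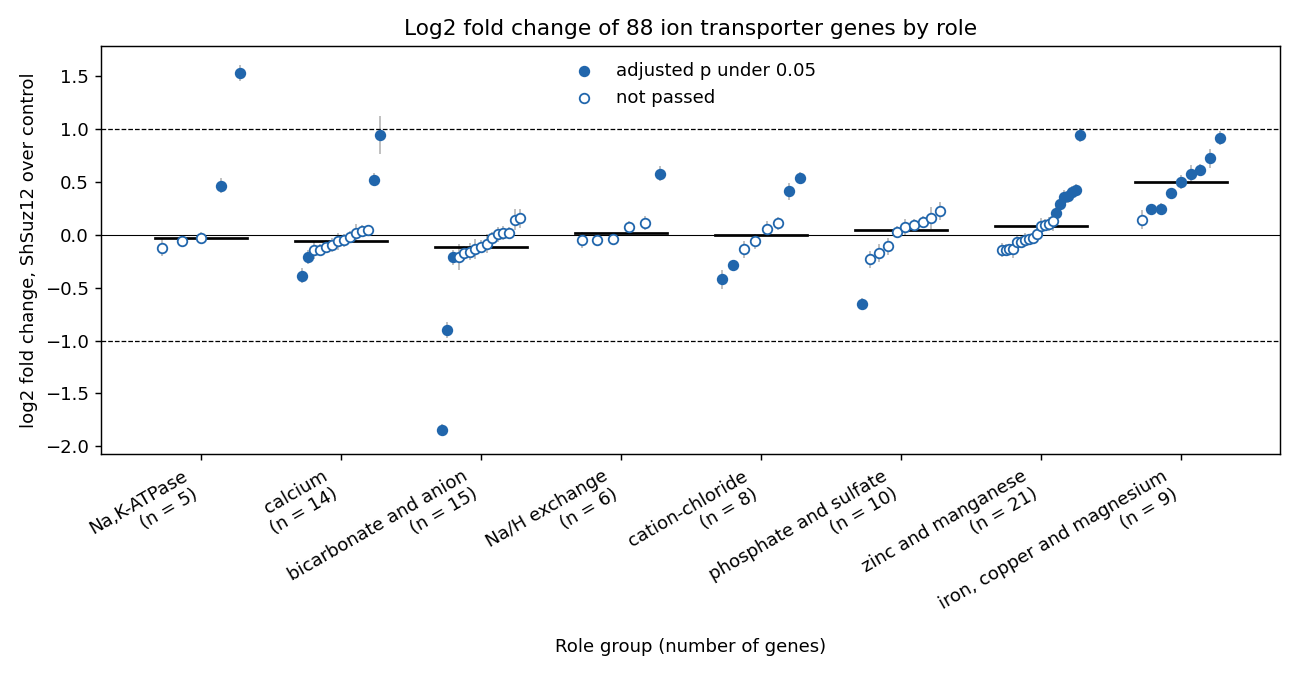
Log2 difference (ShSuz12 minus control, vertical axis) of the 88 member genes at their brightest probe set, in columns by transport role with the SE; filled points passed at an adjusted p under 0.05, open points did not, black lines mark each column's median and dashed lines a 2-fold change. The iron, copper and magnesium column lies highest, with a median of 0.50, and Atp1b1 and Slc4a4 are the only points past a log2 difference of 1 in either direction.

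The sodium pump beta subunit Atp1b1, which the alpha subunit needs for assembly and delivery to the membrane, was the only member gene that rose by 2-fold. Its brightest probe set lay at 9.30, 9.11 and 9.40 on the log2 scale in ShSuz12 cells and at 7.78, 7.67 and 7.76 in control cells. The other lay at 8.99, 8.93 and 8.94 in ShSuz12 cells and at 7.11, 7.18 and 7.01 in control cells. At each probe set all 3 ShSuz12 arrays were above all 3 control arrays by more than 1 log2 unit. The rise was 2.89-fold at the brightest (log2 difference 1.53, SE 0.08, adjusted p = 3.98e-06) and 3.61-fold at the other (1.85, SE 0.06, adjusted p = 2.98e-07). Atp1b2, a beta subunit best known from glia, rose by 0.47 at one probe set (adjusted p = 1.91e-03) and stood at 0.08 at a dim one (adjusted p = 0.460). Atp1b3, the other widely expressed beta subunit, had a difference of -0.03 (adjusted p = 0.753). Atp1b4 and the testis alpha subunit Atp1a4 lay below the 25th percentile of the array in both groups and did not pass. Of these 5 genes 2 rose and 0 fell, and 1 fell after median subtraction, with a median log2 difference of -0.03. The share that rose was 40% on both scales, beside 17.1% and 13.6% of all genes.

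**Figure D2:**
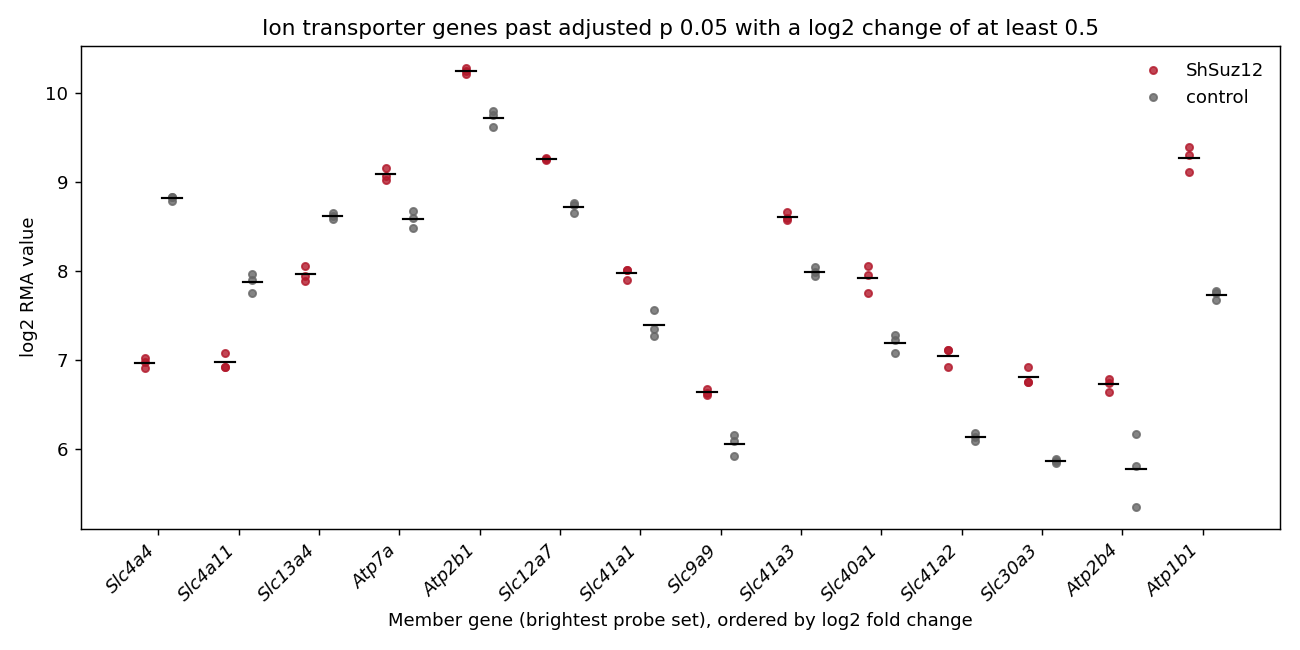
Log2 value on each array (vertical axis) of the member genes that passed with a log2 difference of 0.5 or more in either direction, ordered along the horizontal axis by that difference, at each gene's brightest probe set; red points are the 3 ShSuz12 arrays, grey points to their right the 3 control arrays, and black lines the group means. Atp1b1 and Slc4a4 are separated by more than 1 log2 unit in opposite directions, and Atp2b4 shows the widest control group, with an SD of 0.41.

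The bicarbonate transporters held the largest fall. Slc4a4, the electrogenic sodium bicarbonate cotransporter that loads bicarbonate across the basolateral membrane of intestine, pancreas and kidney, had log2 values of 7.03, 6.91 and 6.98 in ShSuz12 cells and of 8.84, 8.83 and 8.79 in control cells. The groups lay far apart, with all ShSuz12 values more than 1 log2 unit below the lowest control value. The fall was 3.60-fold (log2 difference -1.85, SE 0.05, adjusted p = 1.83e-07). A second probe set had 5.84, 5.97 and 6.15 in ShSuz12 cells and 7.16, 7.35 and 7.34 in control cells, a 2.46-fold fall (-1.30, SE 0.09, adjusted p = 2.23e-05). The bases before its start are shown because it was the member gene that fell most. They lie at chr14:19468283-19468532 of GRCr8 on the minus strand, as the 250 bases before the first RefSeq start, and each CG is in capitals:
Slc4a4: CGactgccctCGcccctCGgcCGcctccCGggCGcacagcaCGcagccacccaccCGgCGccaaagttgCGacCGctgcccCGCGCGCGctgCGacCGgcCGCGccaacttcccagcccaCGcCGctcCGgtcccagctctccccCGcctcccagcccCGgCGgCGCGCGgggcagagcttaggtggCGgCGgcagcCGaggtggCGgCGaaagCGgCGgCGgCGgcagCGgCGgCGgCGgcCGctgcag
This stretch holds 42 CG, and the window of 300 bases that runs 50 bases past the start holds 47. The median over the 75 member genes with a promoter in the RefSeq table was 20 CG per window.

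Slc4a11, a proton and water pathway of the same family known from the corneal endothelium, had log2 values of 6.92, 6.93 and 7.08 in ShSuz12 cells and of 7.90, 7.97 and 7.76 in control cells. The groups did not overlap, and the fall was 1.86-fold (-0.90, SE 0.07, adjusted p = 5.47e-05), which became at least 2-fold after median subtraction. The anion exchanger Slc4a2, which brings chloride into the cell against bicarbonate, lay at 8.85, 8.90 and 8.97 in ShSuz12 cells and at 8.73, 8.98 and 8.58 in control cells. These groups overlapped (log2 difference 0.14, adjusted p = 0.303). Slc4a7, an electroneutral bicarbonate cotransporter, had -0.16 at the brightest of its probe sets (adjusted p = 0.163) and fell by 0.31 at the other (adjusted p = 4.71e-03). Among the Slc26 anion exchangers the sulfate transporter Slc26a2 fell by 0.21 (adjusted p = 0.0484), at low values. Slc26a3, the apical chloride and bicarbonate exchanger of the intestine, lay below the 25th percentile of the array in both groups (log2 difference 0.02, adjusted p = 0.875). In all, 0 of 15 bicarbonate and anion transporters rose and 3 fell, or 6 after median subtraction, with a median log2 difference of -0.11. The shares that fell, 20% and 40%, were close to those over all genes, 23.3% and 41.7%.

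Larger differences than that of any bicarbonate transporter were seen for 3 carbonic anhydrases, the enzymes that interconvert carbon dioxide and bicarbonate. Car2, the widespread cytosolic form, had log2 values of 9.26, 9.19 and 9.19 in ShSuz12 cells and of 5.46, 5.40 and 5.19 in control cells (difference 3.87, adjusted p = 2.47e-08). Car1, a cytosolic form known from red cells and colon, had 8.53, 8.45 and 8.44 in ShSuz12 cells and 4.51, 4.92 and 4.50 in control cells (3.83, adjusted p = 1.59e-07). Neither pair of groups came within 3 log2 units of overlapping. Car3 rose by 1.95 at one probe set (adjusted p = 6.37e-06) and by 0.25 at the other (adjusted p = 0.0430). Of 12 carbonic anhydrase genes measured 6 rose, 3 of them by 2-fold, and 0 fell, and the counts were 5 and 2 after median subtraction. Those that rose were 50% and 41.7%, beside 17.1% and 13.6% of all genes, of which 3.82% were called at least 2-fold higher. Those that fell after subtraction were 16.7%, beside 41.7%.

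Sodium and proton exchangers moved little. Slc9a9, an exchanger of endosomes, had log2 values of 6.61, 6.67 and 6.64 in ShSuz12 cells and of 5.93, 6.09 and 6.16 in control cells. The groups did not overlap and the rise was 1.49-fold (0.58, SE 0.07, adjusted p = 4.04e-04), but a second probe set of the gene gave -0.01 (adjusted p = 0.929). Slc9a8, of the Golgi, had a difference of 0.08 (adjusted p = 0.368). Slc9a2 and Slc9a3, the apical exchangers of enterocytes, had differences of -0.04 (adjusted p = 0.612) and -0.05 (adjusted p = 0.573). Of the 6 genes Slc9a9 alone passed, a share of 16.7% that rose, close to the 17.1% of all genes.

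Cation-chloride cotransporters moved in both directions. Slc12a2, which loads chloride with sodium and potassium across the basolateral membrane of secreting crypt cells, had log2 values of 10.20, 10.21 and 10.22 in ShSuz12 cells and of 10.48, 10.53 and 10.48 in control cells. The difference was small beside others but larger than the spread, a fall by 0.29 (SE 0.05, adjusted p = 2.63e-03). Slc12a7, a potassium chloride cotransporter that lets chloride out, lay at 9.28, 9.26 and 9.25 in ShSuz12 cells and at 8.74, 8.76 and 8.66 in control cells. It rose by 0.54 (SE 0.05, adjusted p = 1.44e-04), while its dim second probe set gave -0.06 (adjusted p = 0.466). The neuronal member Slc12a5 rose by 0.41 (adjusted p = 5.25e-03), and Slc12a8 fell by 0.42 (adjusted p = 8.35e-03). The loop diuretic target of the kidney, Slc12a1, lay near the bottom of the array in both groups (-0.06, adjusted p = 0.553). Of these 8 genes 2 rose and 2 fell, or 3 after median subtraction. The share that rose was 25% on both scales, beside 17.1% and 13.6% of all genes. The share that fell was 25% and then 37.5%, near the 23.3% and 41.7% of all genes. Stk39, a kinase that phosphorylates Slc12a2, had 7.47, 7.47 and 7.49 in ShSuz12 cells and 5.47, 5.42 and 5.49 in control cells (2.02, adjusted p = 7.12e-08), although a second probe set gave 0.30 (adjusted p = 0.0545). On a list of 11 kinases and scaffolds of ion transport 5 rose and 2 fell, or 3 and 3 after median subtraction. Rises were 45.5% and 27.3%, beside 17.1% and 13.6% of all genes. Falls were 18.2% and 27.3%, beside 23.3% and 41.7%. Ezr, the membrane linker ezrin, fell by 0.68 (adjusted p = 3.33e-05).

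Few calcium pumps and exchangers passed, with rises and falls at shares below or near those of all genes. Atp2b4, a plasma membrane calcium pump, had log2 values of 6.75, 6.65 and 6.79 in ShSuz12 cells and of 6.17, 5.36 and 5.81 in control cells. The control arrays were scattered but all lay below the ShSuz12 arrays, with a difference of 0.95 (SE 0.18, adjusted p = 4.25e-03). Without control replicate 1 it was 1.14, past 2-fold, and without control replicate 2 it was 0.73. Atp2b1, the pump that sends calcium into the blood in the intestine, lay at 10.25, 10.29 and 10.21 in ShSuz12 cells and at 9.63, 9.80 and 9.75 in control cells. It rose by 0.52 (SE 0.06, adjusted p = 3.88e-04) and by 0.22 at a second probe set (adjusted p = 0.0239), with -0.05 at the third (adjusted p = 0.713). Atp2a2, which refills the endoplasmic reticulum, had 0.03 at the brightest of its probe sets (adjusted p = 0.680), while 3 of the other 4 fell by 0.20 to 0.22 (adjusted p = 0.0211 to 0.0393). The potassium-dependent exchangers Slc24a4 and Slc24a2 fell by 0.38 (adjusted p = 3.24e-03) and 0.21 (adjusted p = 0.0433) at their brightest probe sets. Neither fall was seen at their remaining probe sets, with differences of 0.08 and -0.01 for Slc24a4 and of 0.01 for Slc24a2. Slc8a1, the sodium calcium exchanger of heart and many other tissues, also differed by probe set, at 0.04 (adjusted p = 0.553) for the brightest and -0.37 (adjusted p = 6.77e-03) for the other. In total 2 of 14 calcium transporters rose and 2 fell, or 6 after median subtraction, where the share of falls, 42.9%, was near that of all genes. Pln, the inhibitor of Atp2a2 known from heart, rose by 0.96 at the brightest of its probe sets (adjusted p = 2.78e-03), by 1.48 at another and had -0.03 at the remaining one. On the list of 14 store and channel genes that includes Pln, 4 rose and 3 fell, or 2 and 5 after median subtraction. Rises were 28.6%, beside 17.1% of all genes, but after subtraction their share was near the 13.6% of all genes. Falls were 21.4% and 35.7%, beside 23.3% and 41.7%.

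Phosphate, sulfate and dicarboxylate transporters gave 1 gene that passed. Slc13a4, a sodium sulfate cotransporter, had log2 values of 8.06, 7.90 and 7.95 in ShSuz12 cells and of 8.62, 8.65 and 8.59 in control cells. The groups were clearly apart, and the fall was 1.57-fold (-0.65, SE 0.06, adjusted p = 9.88e-05). Slc20a1, a phosphate importer that also serves as a retrovirus receptor, had 10.35, 10.40 and 10.37 in ShSuz12 cells and 10.20, 10.31 and 10.24 in control cells. These values did not overlap, but the difference of 0.12 did not pass (adjusted p = 0.114). Slc34a2, the phosphate uptake route of the intestinal brush border, lay below the 25th percentile of the array in both groups (0.09, adjusted p = 0.243). Of 10 genes 0 rose and 1 fell, while 0 rose and 3 fell after median subtraction and 1 rose (Slc20a1) and 2 fell after the second quantile normalization. The share that fell was 10% on the deposited scale and 30% after median subtraction, beside 23.3% and 41.7% of all genes.

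Of the 8 roles, those that handle metals held the most rises by number. By share the iron, copper and magnesium role was highest, while zinc and manganese, at 33.3%, came after the sodium pump genes, at 40%. Among 9 iron, copper and magnesium transporters 8 rose, 0 fell and Atp7b did not pass. The median log2 difference was 0.50 and 6 of the 9 still rose after median subtraction, where 0 fell, Slc11a2 and Slc31a2 no longer passed, and the median was 0.40. These are 88.9% and 66.7% of the genes, beside 17.1% and 13.6% of all genes. Probe sets of these genes numbered 21, of which 13 rose on the deposited scale (61.9%, beside 14.8% of all probe sets) and 0 fell (beside 19.5%). Several of the 13 belong to the same gene, so they are not 13 separate genes.

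Slc40a1, ferroportin, the only known iron exporter of mammalian cells, was one of 3 member genes, with Atp1b1 and Slc4a4, that passed in the same direction at every one of several probe sets. It had log2 values of 8.06, 7.95 and 7.76 in ShSuz12 cells and of 7.22, 7.08 and 7.29 in control cells at the brightest. At the next it had 7.63, 7.72 and 7.73 in ShSuz12 cells and 6.70, 6.96 and 6.95 in control cells. The groups were apart at each, and the rises were 0.73 (SE 0.09, adjusted p = 4.95e-04) and 0.82 (SE 0.08, adjusted p = 1.39e-04), with 0.51 at the third (adjusted p = 4.92e-04). Its promoter is printed beside that of Slc30a3, the zinc transporter that rose most, and of Slc12a1, at the bottom of the array, for contrast in CG content. CG is again in capitals, in the 250 bases before each RefSeq start, at chr9:55543461-55543710 (minus strand), chr6:30997164-30997413 (plus strand) and chr3:132859409-132859658 (plus strand) of GRCr8:
Slc40a1: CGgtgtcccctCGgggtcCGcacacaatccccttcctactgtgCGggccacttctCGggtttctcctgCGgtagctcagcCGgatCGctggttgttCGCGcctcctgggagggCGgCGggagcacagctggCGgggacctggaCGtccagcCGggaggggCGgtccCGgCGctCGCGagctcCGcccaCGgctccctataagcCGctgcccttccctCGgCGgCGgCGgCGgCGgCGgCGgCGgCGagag
Slc30a3: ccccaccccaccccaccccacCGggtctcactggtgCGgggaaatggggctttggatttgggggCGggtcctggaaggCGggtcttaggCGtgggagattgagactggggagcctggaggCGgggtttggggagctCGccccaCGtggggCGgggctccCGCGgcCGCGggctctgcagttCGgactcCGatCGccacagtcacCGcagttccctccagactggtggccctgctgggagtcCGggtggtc
Slc12a1: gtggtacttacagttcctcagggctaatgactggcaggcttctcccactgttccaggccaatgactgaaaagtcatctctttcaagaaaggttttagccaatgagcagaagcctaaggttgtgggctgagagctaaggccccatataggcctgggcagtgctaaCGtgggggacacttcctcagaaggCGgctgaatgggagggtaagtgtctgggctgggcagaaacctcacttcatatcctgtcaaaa
The CG counts in the printed bases were 33 for Slc40a1, 18 for Slc30a3 and 2 for Slc12a1. Over the windows of 300 bases the median was 21.5 CG for the 20 member genes that rose, 26 for the 7 that fell and 20 for the 48 that did not pass. Over all measured genes with a window the medians were 21, 21 and 17, and at least 1 CG stood in 100% of member windows and 98.8% of theirs. Of all 33469 windows in RefSeq 94.5% held a CG, with a median of 7.

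Slc11a2, the divalent metal importer of the duodenum, had log2 values of 8.97, 8.93 and 9.0 in ShSuz12 cells and of 8.68, 8.77 and 8.72 in control cells. It rose by 0.24 (adjusted p = 8.27e-03), while its second probe set gave -0.14 (adjusted p = 0.116) and so had the other sign. Copper transporters rose as well. Slc31a1, the high-affinity copper importer, lay at 11.74, 11.74 and 11.76 in ShSuz12 cells and at 11.35, 11.35 and 11.34 in control cells, a rise by 0.40 (SE 0.05, adjusted p = 4.31e-04) with very little spread. Of its other 3 probe sets 2 rose, by 0.30 and 0.32, and 1 gave 0.24 (adjusted p = 0.0648). Atp7a, the pump that exports copper from enterocytes, had 9.17, 9.02 and 9.07 in ShSuz12 cells and 8.59, 8.68 and 8.48 in control cells, without overlap (0.50, SE 0.07, adjusted p = 9.06e-04). A second probe set rose by 0.34 and another gave 0.09 (adjusted p = 0.332). Slc31a2, a relative of Slc31a1 on internal membranes, rose by 0.25 (adjusted p = 0.0134), with 0.17 at its other probe set (adjusted p = 0.297). Atp7b, the liver counterpart of Atp7a, gave 0.14 (adjusted p = 0.270) and 0.02 (adjusted p = 0.882).

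All 3 genes of the Slc41 magnesium transporter family rose. Slc41a2 had log2 values of 7.11, 7.11 and 6.93 in ShSuz12 cells and of 6.18, 6.13 and 6.09 in control cells (0.91, SE 0.07, adjusted p = 2.73e-05). Slc41a3, a mitochondrial member, lay at 8.59, 8.58 and 8.66 in ShSuz12 cells and at 7.99, 8.05 and 7.95 in control cells (0.62, SE 0.05, adjusted p = 8.22e-05). Slc41a1, a plasma membrane exporter, lay at 8.01, 7.90 and 8.01 in ShSuz12 cells and at 7.28, 7.57 and 7.35 in control cells (0.58, SE 0.08, adjusted p = 1.04e-03). None of these groups overlapped, yet the dimmer probe sets of Slc41a1 and Slc41a2 did not pass, at -0.07 and 0.03.

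**Figure D3:**
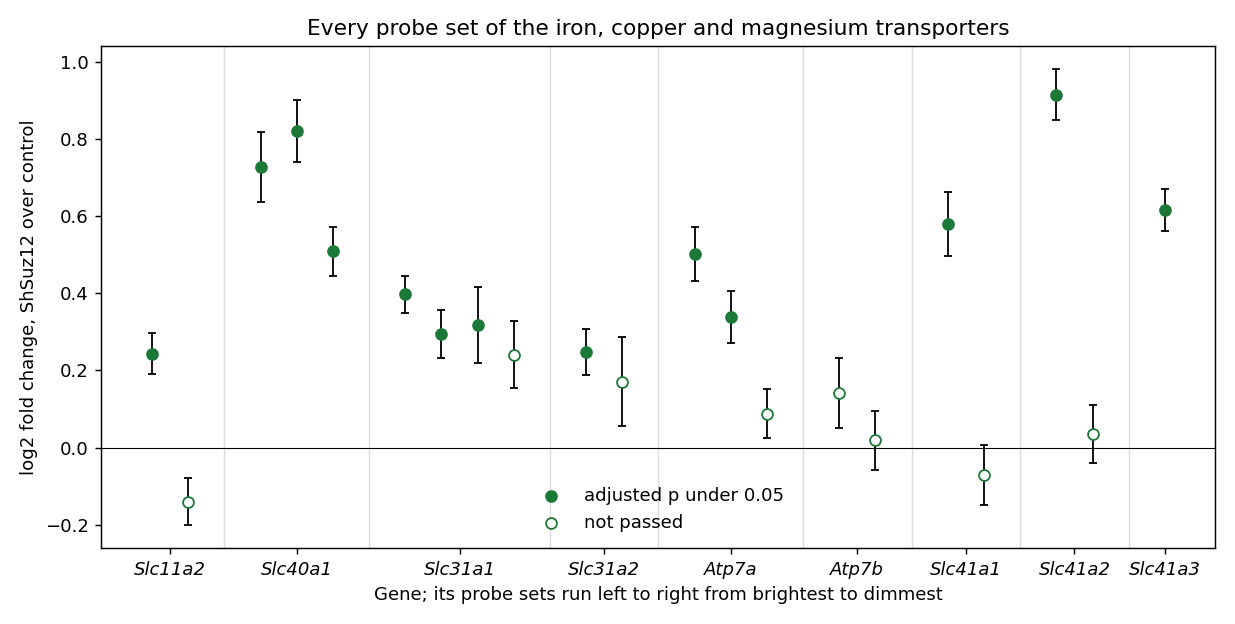
Log2 difference (ShSuz12 minus control, vertical axis, with the SE) of every probe set of the 9 iron, copper and magnesium transporters, grouped by gene along the horizontal axis from the brightest to the dimmest; filled points passed at an adjusted p under 0.05. The 3 probe sets of Slc40a1 all passed above 0 (0.73, 0.82 and 0.51). Slc41a1, Slc41a2, Slc11a2, Slc31a1, Slc31a2 and Atp7a each have one that did not pass, and neither of Atp7b passed.

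Zinc transporters come in opposed families, Slc30 moving zinc out of the cytosol and Slc39 moving it in. Of 21 genes 7 rose and 0 fell, with a median log2 difference of 0.09, but 6 rose and 5 fell after median subtraction, so the absence of falls held on the deposited scale and after the second quantile normalization but not on that one. The shares of rises were 33.3% and 28.6%, beside 17.1% and 13.6% of all genes, and the share of falls after subtraction was 23.8%, beside 41.7%. Slc30a3, which loads zinc into synaptic vesicles of neurons, had log2 values of 6.93, 6.76 and 6.76 in ShSuz12 cells and of 5.90, 5.87 and 5.84 in control cells. The groups were widely apart and the rise was 1.93-fold (0.95, SE 0.06, adjusted p = 1.65e-05). Slc30a1, the zinc exporter of the plasma membrane, lay at 6.44, 6.46 and 6.27 in ShSuz12 cells and at 5.99, 6.03 and 6.08 in control cells (0.36, SE 0.07, adjusted p = 3.79e-03). The 7 other Slc30 genes, among them Slc30a5, Slc30a6 and Slc30a7 of the secretory pathway, did not pass and had differences of -0.14 to 0.09.

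On the import side Slc39a13, a transporter needed for normal connective tissue, had log2 values of 9.45, 9.45 and 9.51 in ShSuz12 cells and of 9.10, 9.06 and 8.98 in control cells, a rise by 0.42 (SE 0.06, adjusted p = 6.56e-04). Slc39a1, an importer of the plasma membrane, lay at 10.92, 10.88 and 10.95 in ShSuz12 cells and at 10.66, 10.64 and 10.58 in control cells, a rise by 0.29 (adjusted p = 3.82e-03). Slc39a11 rose by 0.40 (adjusted p = 1.73e-03), Slc39a10 by 0.36 (adjusted p = 3.19e-03) and Slc39a6 by 0.21 (adjusted p = 0.0258), the last of which did not pass after median subtraction. The dimmer probe sets of Slc39a6 gave 0.12 (adjusted p = 0.164) and 0.05 (adjusted p = 0.515). Slc39a4, the zinc uptake route of the intestine, gave 0.13 (adjusted p = 0.332). Slc39a14, a manganese and iron importer, gave -0.14 (adjusted p = 0.104).

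In mouse, Slc30a1 and the metallothioneins respond to zinc through the factor Mtf1, which binds metal response elements. The core of that element, TGCACNC or TGCGCNC on either strand, was searched in the windows of 300 bases, and its TGCGCNC form holds a CG. It stood in 30 of the 75 member windows (40%), in 34.9% of the windows of all measured genes and in 24.2% of all windows of the table, and in 8 of 17 zinc transporter windows. The share was 40% for members that rose, 42.9% for those that fell and 39.6% for those that did not pass. The bases before Slc30a1 are shown for its matches, at chr13:106021769-106022018 of GRCr8 on the plus strand, with the cores in capitals:
Slc30a1: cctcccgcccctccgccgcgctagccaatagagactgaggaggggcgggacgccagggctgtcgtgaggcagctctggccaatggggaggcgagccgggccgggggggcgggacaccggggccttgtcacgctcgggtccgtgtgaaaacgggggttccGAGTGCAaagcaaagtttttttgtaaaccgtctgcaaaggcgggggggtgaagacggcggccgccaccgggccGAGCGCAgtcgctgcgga
The matches begin 91 and 18 bases before the start. The Mt2A window held 4 such cores and that of Mt1 held 6. Mt2A, a metallothionein that binds zinc and copper, had log2 values of 11.55, 11.65 and 11.68 in ShSuz12 cells and of 9.03, 8.95 and 8.97 in control cells, a 6.25-fold rise (adjusted p = 3.74e-08). Mt1 rose by 0.69 (adjusted p = 9.19e-05), while Mt3 gave 0.04 (adjusted p = 0.598). Mtf1 itself passed at none of its 3 probe sets, with -0.05 (adjusted p = 0.648) at the brightest. A link between these cores and the rises was not tested.

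Several other genes of metal handling rose by more than any metal transporter. Heph, the copper oxidase that works with ferroportin in the enterocyte, had log2 values of 9.54, 9.36 and 9.41 in ShSuz12 cells and of 5.31, 5.60 and 5.05 in control cells. The rise was 17.4-fold (4.12, SE 0.13, adjusted p = 2.42e-07). Cp, the related oxidase of plasma, rose by 1.53 (adjusted p = 7.26e-06), by 1.59 and by 2.38 at its 3 probe sets. The metal reductases also rose, by 1.70 for Cybrd1 of the duodenal brush border, 2.31 for Steap4 and 1.37 for Steap3. Ireb2, an iron sensor that binds messenger RNA, fell by 0.74 (adjusted p = 1.32e-03), as did its relative Aco1, by 0.40 (adjusted p = 1.16e-03). On the list of 18 metal binding and handling genes 10 rose, 6 of them by 2-fold, and 4 fell, or 9 and 5 after median subtraction. Rises were 55.6% and 50%, beside 17.1% and 13.6% of all genes, of which 3.82% were called at least 2-fold higher. Falls were 22.2% and 27.8%, beside 23.3% and 41.7%. The FXYD proteins, small regulators of the sodium pump, gave 4 rises and 0 falls among 7 genes, or 3 and 0 after median subtraction. Their rises were 57.1% and 42.9%, beside 17.1% and 13.6% of all genes. Among the FXYD genes Fxyd6 had 8.29, 8.25 and 8.28 in ShSuz12 cells and 5.21, 5.19 and 5.26 in control cells (3.06, adjusted p = 1.48e-08). Fxyd5 rose by 1.29 (adjusted p = 8.12e-07).

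**Figure D4:**
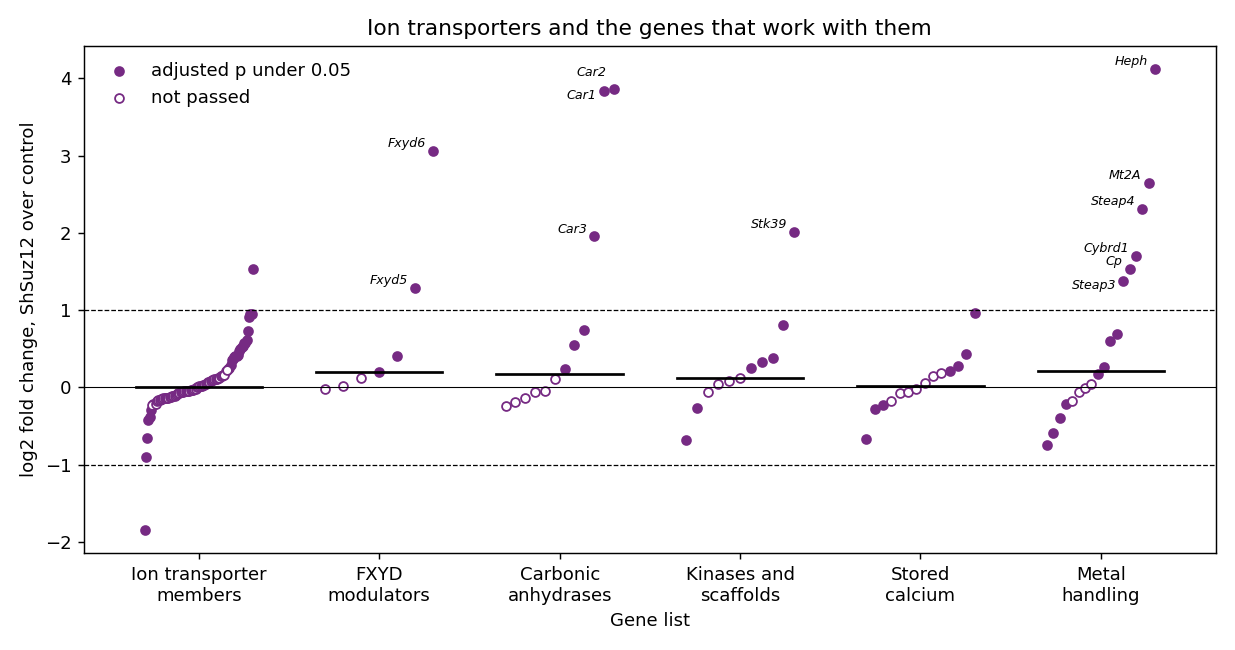
Log2 difference (ShSuz12 minus control, vertical axis) of the 88 transporter genes and, to their right, of 5 lists of genes that work with them, at the brightest probe set of each gene; filled points passed at an adjusted p under 0.05, black lines are list medians and dashed lines a 2-fold change. Heph, Car2, Car1 and Fxyd6 lie highest, between 3.06 and 4.12, and no gene of these lists fell by 2-fold.

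Agreement between probe sets was limited. Of the 33 member genes with several probe sets, 20 had the same sign at all of them, 3 passed the same way at all, 18 passed at some and 12 at none. None passed in opposite directions. With 3 arrays in each group, a two-sided exact permutation test of a single probe set could not go below p = 0.1. The calls therefore rest on limma's model, with a spread pooled over all probe sets. The methods' t-test with Benjamini-Hochberg, which does not pool, gave the same 2-fold counts, with 21 member genes higher and 7 lower.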

How the data were processed

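Expression was measured on 6 Affymetrix RAE230 2.0 rat arrays, 3 of ShSuz12 and 3 of control IEC-6 cells. The authors corrected background, normalized the arrays together and summarized each probe set by RMA in FlexArray 1.6.1, and deposited log2 values. No source used here gives RMA's version. After removal of 57 control probe sets, limma 3.58.1 (R 4.3.3; lmFit, eBayes, two-sided) was fitted to 31042 probe sets, with Benjamini-Hochberg adjustment over all. The platform annotation gave 1 symbol to 20826, several to 436 and none to 9780, and the GRCr8 gene table changed 0 symbols. RefSeq promoter windows matched 75 of the 88 genes. The fit was checked on simulated data. The number of arrays limits the precision.

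Named by rule were genes called at 2-fold, up to 2 rises and 2 falls per role that passed, and each role's brightest gene. Other named members, such as Slc41a1, Slc41a3, Slc11a2, Slc31a2, Atp7a, Slc30a1, Slc4a7 and Slc8a1, were chosen after their values were seen. Members and gene lists were chosen with earlier results of these data known. Alternatives were the methods' t-test, an intensity trend with robust eBayes, a filter at the 40th percentile in at least 2 arrays of either group, subtraction of array medians, another round of quantile normalization, averaging a gene's probe sets, the replicate number as a block, and leaving out each array.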

Additional observations from a re-analysis of the deposited data

How the results depend on the processing

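The calls of Atp1b1 and Slc4a4 kept their direction and stayed past 2-fold under every alternative run, and no named result that passed changed sign. Median subtraction could not turn such a sign, since each named rise that passed was larger than its shift of 0.10. The sign did turn for Atp2a2, from 0.03 to -0.07 with median subtraction and -0.15 with the mean of its probe sets, where it passed (adjusted p = 0.0409 from limma), and for Slc9a8, from 0.08 to -0.02 with median subtraction, neither of which had passed. Median subtraction gave the widest departures, with 24 member genes and 36 member probe sets lower (8 and 16 on the deposited scale) and 2 genes at least 2-fold lower, Slc4a11 being added. Leaving out 1 array at a time gave 10 to 14 member probe sets lower, with the fewest without ShSuz12 replicate 3, and 6 to 8 genes lower. The same gave 21 to 24 genes and 26 to 31 probe sets higher. At 2-fold it gave 1 to 2 genes and 2 to 3 probe sets higher, Atp2b4 being added without control replicate 1, and 1 gene and 2 probe sets lower throughout. The methods do not say whether replicate numbers pair the samples. Same-numbered deviations from the group means correlated at 0.02, -0.04 and -0.06, which cannot settle it with 3 arrays per group. With the replicate block 22 member genes were higher and 6 lower, and the 2-fold counts did not change. Of 26 named results, 18 kept their direction and side of the threshold under all 14 alternatives. Slc24a2 did not pass under 9 of the 14. By the methods' t-test after Benjamini-Hochberg, Atp2b4 (adjusted p = 0.0594, t-test in place of limma), Slc12a8 (0.0620) and Slc24a2 (0.0991) did not pass, nor did Slc24a4 with the mean of its probe sets (0.190). The cause was not tested.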
